A study of Mus musculus with 8 samples.

Results

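The 6 genes described here are the core of the aryl hydrocarbon receptor (AhR) pathway: the receptor gene *Ahr*, the repressor gene *Ahrr*, the feedback enzyme gene *Tiparp*, and *Cyp1a1*, *Cyp1a2* and *Cyp1b1*, which encode the CYP1 family of cytochrome P450 enzymes. They were taken by gene symbol, not by their values, from the 39089 genes of the deposited tables. Earlier results of these data were known when they were chosen. The study measured RNA from Myc-CaP tumors, which arise from a mouse prostate cancer cell line driven by Myc. Cells with a control vector (labelled EV, and called WT here) or with an sgRNA targeting *Arid1a* (*Arid1a* KO), which encodes a DNA-binding subunit of the SWI/SNF chromatin remodeler, were injected under the skin of male FVB mice aged 6 weeks. From day 16, mice received either corn oil as vehicle or JSH-23, an inhibitor of NF-κB p65, by daily gavage for 2 weeks, and the EpCAM+; CD45- fraction of each tumor was sorted for sequencing. There were 4 groups of 2 samples: WT with vehicle, WT with JSH-23, *Arid1a* KO with vehicle and *Arid1a* KO with JSH-23. All 4 groups thus share the cell line, the host strain and the sort, and they differ in the guide and the gavage. The labels do not say whether the KO cells were a clone or a pool, nor whether the samples of a group came from separate mice, so that p-values measure the spread between these samples, which may be technical.

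AhR is a ligand-activated transcription factor of the bHLH-PAS family that waits in the cytoplasm with HSP90 chaperones. After binding a ligand, such as a dioxin or a tryptophan metabolite, it enters the nucleus, pairs with ARNT and binds xenobiotic response elements, whose core is GCGTG. Its targets include the CYP1 enzymes, which oxidize aromatic compounds and thereby clear many ligands, and AHRR and TIPARP, which feed back to restrain the receptor.

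Total counts ranged from 16401581 to 21972231 per sample. *Arid1a* reads stood at 156 and 161 CPM (counts scaled to library size and corrected by TMM factors) in WT with vehicle, 103 and 106 CPM in KO with vehicle, 144 and 155 CPM in WT with JSH-23 and 93.8 and 95.9 CPM in KO with JSH-23, lower in every KO sample than in any WT sample. An edited gene can still be transcribed, so this RNA level checks the labels only in part. *Epcam*, the marker of the sort, had only 6 counts over the 8 samples and *Cdh1* had 58, whereas *Krt8* reached 32.8 to 113 CPM. The summed level of the 5 epithelial markers was 88.5 to 102 CPM in WT and 215 to 217 CPM in KO with vehicle, and 45.3 to 47.0 CPM in WT and 179 to 187 CPM in KO with JSH-23. Most of it was *Krt8* and *Krt19*, with means of 55.4 and 38.9 CPM in WT and 112 and 103 CPM in KO with vehicle. *Krt18* had group means of at most 0.918 CPM. The 8 leukocyte markers summed to at most 3.65 CPM, and they were higher in both WT vehicle samples and in 1 WT JSH-23 sample, at 3.24 to 3.65 CPM, than in the other 5 samples, at 0.304 to 0.630 CPM. The 5 endothelial markers summed to 0.533 to 1.73 CPM, the 5 keratinocyte markers to 2.61 to 5.52 CPM and the 3 hepatocyte markers to at most 0.331 CPM. In such bulk samples, fewer cells of a type and less RNA per cell cannot be told apart, and the part of these markers in the results below was not tested.

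In both genotypes, *Cyp1b1* was lower and *Tiparp* was higher with JSH-23 than with vehicle, while *Ahr* rose with JSH-23 in WT tumors and did not pass in KO tumors, a difference between genotypes that itself passed. *Ahrr*, *Cyp1a1* and *Cyp1a2* were at the edge of detection in every sample. Hence 3 of the 6 genes passed the filter on low counts, and *Ahr*, *Tiparp* and *Cyp1b1* carry the tests below, which used the quasi-likelihood test of edgeR, adjusted by Benjamini-Hochberg over 13921 genes. A gene passed at an adjusted p under 0.05, and a fold change of at least 1.5 was counted as well. The samples of a group were close (biological coefficient of variation fitted over all genes, 1.61%), and many small differences passed.

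**Figure D1:**
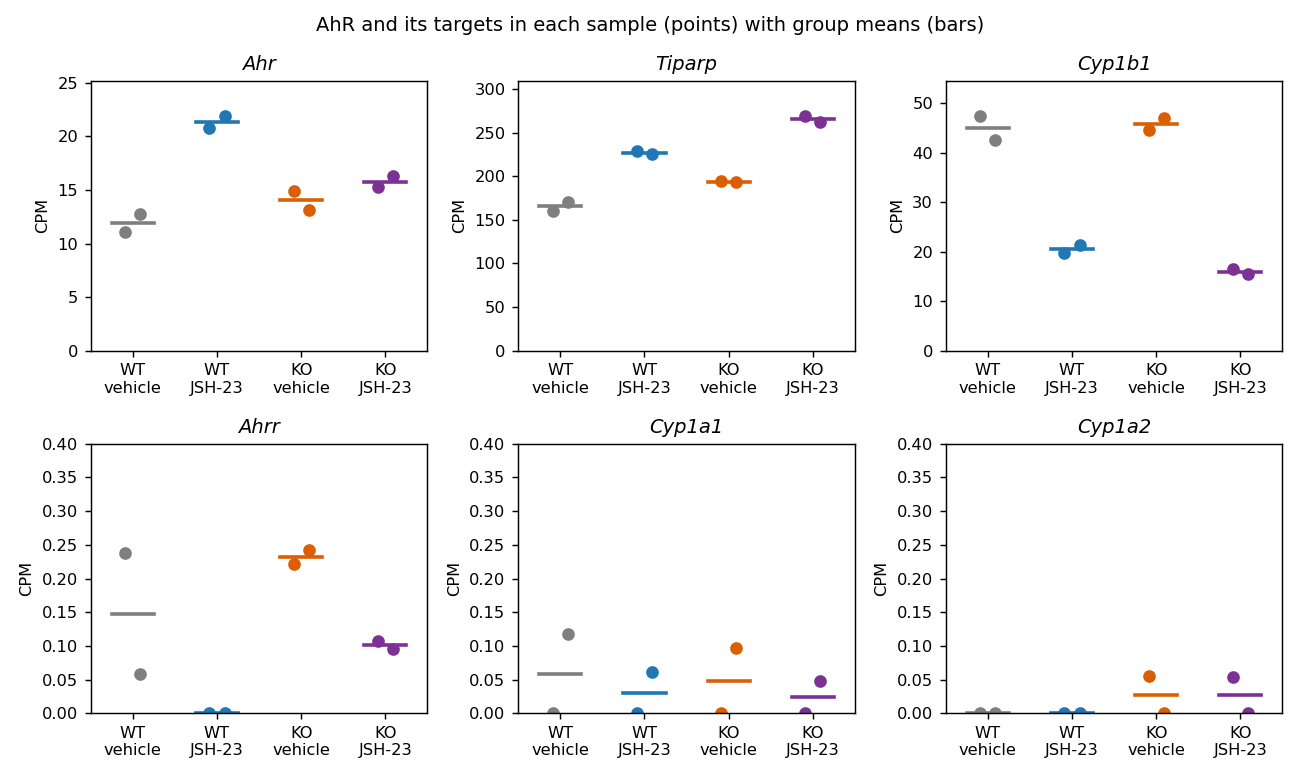
Level of each of the 6 genes (y axis, CPM after TMM scaling, starting at 0) in the 4 groups (x axis), with each sample as a point and the mean of 2 samples as a bar. Both JSH-23 groups sit below both vehicle groups for *Cyp1b1* and above them for *Tiparp*, and the lower panels share an axis that ends at 0.4 CPM.

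*Ahr*, which encodes the receptor, lies on the minus strand of chromosome 12 (chr12:35497979-35534989, GRCm38). It had 187 and 217 counts (11.1 and 12.8 CPM) in WT with vehicle and 372 and 360 counts (20.8 and 21.9 CPM) in WT with JSH-23. In *Arid1a* KO tumors it had 270 and 272 counts (14.9 and 13.2 CPM) with vehicle and 282 and 340 counts (15.2 and 16.3 CPM) with JSH-23. In CPM the WT JSH-23 samples were the highest of the 8, the WT vehicle samples the lowest, and no pair of groups overlapped. The KO groups did overlap in TPM, the authors' values per gene length (6.88 and 6.08 with vehicle, 5.99 and 6.35 with JSH-23), and when counts were divided by library size alone. JSH-23 raised *Ahr* from 11.9 ± 1.17 to 21.3 ± 0.787 CPM (SD, n = 2 each) in WT tumors, a log2 change of 0.84 ± 0.10 (SE), or 1.79-fold (edgeR adjusted p = 1.27e-10). In KO tumors the means were 14.0 ± 1.23 and 15.8 ± 0.755 CPM, and the log2 change of 0.17 did not pass (SE 0.10, adjusted p = 0.119; 95% interval -0.03 to 0.37). On log2(TPM + 1) this change was -0.06, where the median of all genes was -0.20. The JSH-23 effect was smaller in KO than in WT tumors by 0.66 on the log2 scale (interaction -0.66, SE 0.14, edgeR adjusted p = 1.19e-04).

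Between genotypes, *Ahr* was 0.23 higher in KO than in WT tumors on the log2 scale with vehicle, which did not pass (SE 0.11, adjusted p = 0.0710). With JSH-23 it was lower in KO tumors by a log2 change of -0.43 (SE 0.095, edgeR adjusted p = 9.95e-05). Both the difference between genotypes with JSH-23 and the interaction lost their call when the biological coefficient of variation was set to 0.1 in place of the fitted spread, at adjusted p = 0.0567 and 0.0744. A gene annotated as a long intergenic noncoding RNA, *Gm48236*, overlaps the start of *Ahr* on the other strand, and the counting was by strand.

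*Ahrr* encodes the AhR repressor, which competes with the receptor for ARNT and for its DNA element. It lies on chromosome 13 (chr13:74211118-74292331, minus strand). It had 4 and 1 counts in WT with vehicle, 4 and 5 in KO with vehicle, 0 and 0 in WT with JSH-23 and 2 and 2 in KO with JSH-23, 18 counts in all. All 4 JSH-23 samples had 2 counts or fewer and both KO vehicle samples had 4 or more, while the WT vehicle samples lay on either side of the KO JSH-23 samples. A count of 0 allows up to 3 counts, or 0.137 to 0.183 CPM at these depths, and the group means were too close to this floor for a fold change. Without the filter on low counts, edgeR gave an unadjusted p of 0.0517 for JSH-23 in WT tumors, and an adjusted p of 0.145, so a difference was not detectable at this depth.

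*Tiparp* encodes a mono-ADP-ribosyltransferase that modifies AhR and lowers its activity, and it is itself a target of the receptor. It lies on the plus strand of chromosome 3 (chr3:65528447-65555518), and its start overlaps the transcribed pseudogene *4931440P22Rik* on the other strand. It had 2695 and 2903 counts (160 and 171 CPM) in WT with vehicle and 4102 and 3700 counts (229 and 225 CPM) in WT with JSH-23. In KO tumors it had 3522 and 3991 counts (195 and 193 CPM) with vehicle and 4974 and 5470 counts (269 and 262 CPM) with JSH-23. In CPM the groups formed 4 steps with no overlap, from WT with vehicle, through KO with vehicle and WT with JSH-23, to KO with JSH-23. In TPM the last steps overlapped, at 135 and 133 in WT and 140 and 135 in KO tumors with JSH-23. JSH-23 raised *Tiparp* by a log2 change of 0.46 ± 0.030 (SE) in WT tumors and 0.45 ± 0.028 in KO tumors, or 1.37-fold in each (edgeR adjusted p = 1.01e-21 and 8.14e-24). It was higher in *Arid1a* KO than in WT tumors by 0.23 ± 0.030 with vehicle and by 0.23 ± 0.027 with JSH-23 (edgeR adjusted p = 1.22e-09 and 1.14e-10). The JSH-23 effects of the genotypes differed by -0.00 on the log2 scale, with a 95% interval of -0.09 to 0.08 (adjusted p = 0.956). This depended on the scaling: the difference was -0.11 without scaling (adjusted p = 0.0286) and -0.20 on log2(TPM + 1) (limma adjusted p = 0.0162), where the median of all genes was -0.11 and -0.17. None of these changes reached 1.5-fold.

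The rise of *Tiparp* with JSH-23 in KO tumors was 0.21 on log2(TPM + 1), and the median of all genes fell by 0.20 in the same values, which the authors scaled to a fixed sum. In the same values the difference between genotypes with JSH-23 was 0.04 and did not pass (limma adjusted p = 0.439). With the coefficient of variation set to 0.1, *Tiparp* did not pass between genotypes with vehicle (adjusted p = 0.284) or with JSH-23 (0.320).

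*Cyp1b1*, the CYP1 enzyme of many tissues outside the liver, which hydroxylates estrogens and aromatic hydrocarbons, lies on chromosome 17 (chr17:79706940-79715061, minus strand). It had 798 and 723 counts (47.4 and 42.5 CPM) in WT and 806 and 972 counts (44.5 and 47.1 CPM) in KO tumors with vehicle. With JSH-23 it had 354 and 353 counts (19.8 and 21.5 CPM) in WT and 304 and 324 counts (16.4 and 15.5 CPM) in KO tumors. The vehicle groups overlapped each other, and all 4 JSH-23 samples were below all 4 vehicle samples. JSH-23 lowered *Cyp1b1* 2.18-fold in WT tumors, from 45.0 ± 3.44 to 20.6 ± 1.20 CPM, a log2 change of -1.13 ± 0.076 (SE; edgeR adjusted p = 3.99e-21). In KO tumors it was lowered 2.87-fold, from 45.8 ± 1.80 to 16.0 ± 0.629 CPM, a log2 change of -1.52 ± 0.076 (adjusted p = 2.29e-28). The fall was larger in KO tumors by a log2 difference of -0.40 (SE 0.11, edgeR adjusted p = 0.00280).

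Between genotypes with vehicle, *Cyp1b1* differed by 0.03 on the log2 scale, with a 95% interval of -0.10 to 0.16 (adjusted p = 0.743). With JSH-23 it was lower in KO tumors, by -0.37 ± 0.090 (edgeR adjusted p = 4.58e-04). With the coefficient of variation set to 0.1, this difference and the interaction did not pass (adjusted p = 0.120 and 0.343). Fibroblasts also express *Cyp1b1*. The summed level of the 6 fibroblast markers was 60.4 to 64.9 CPM in WT with vehicle, 63.9 to 64.7 in KO with vehicle, 59.6 to 60.4 in WT with JSH-23 and 41.2 to 42.4 in KO with JSH-23. Most of it was *Pdgfra*, at 38.0 to 61.3 CPM, while *Dcn* was at most 0.823 CPM, *Col1a1* at most 3.59 CPM and *Lum* at most 2 counts. This sum was lower with JSH-23 in KO tumors and nearly level in WT tumors, where *Cyp1b1* fell 2.18-fold, and its part in the fall was not tested.

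*Cyp1a1* and *Cyp1a2* encode the CYP1 enzymes of the classical xenobiotic response, *Cyp1a2* mostly in liver, and they lie head to head on chromosome 9 (chr9:57687928-57703824, plus strand, and chr9:57676937-57683655, minus strand). *Cyp1a1* had 0 and 2 counts in WT with vehicle, 0 and 1 in WT with JSH-23, 0 and 2 in KO with vehicle and 0 and 1 in KO with JSH-23. *Cyp1a2* had 1 count in 1 sample of each KO group and 0 counts in all 4 WT samples. Neither gene exceeded the floor of 3 counts in any sample, and no difference was detectable at this depth.

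**Figure D2:**
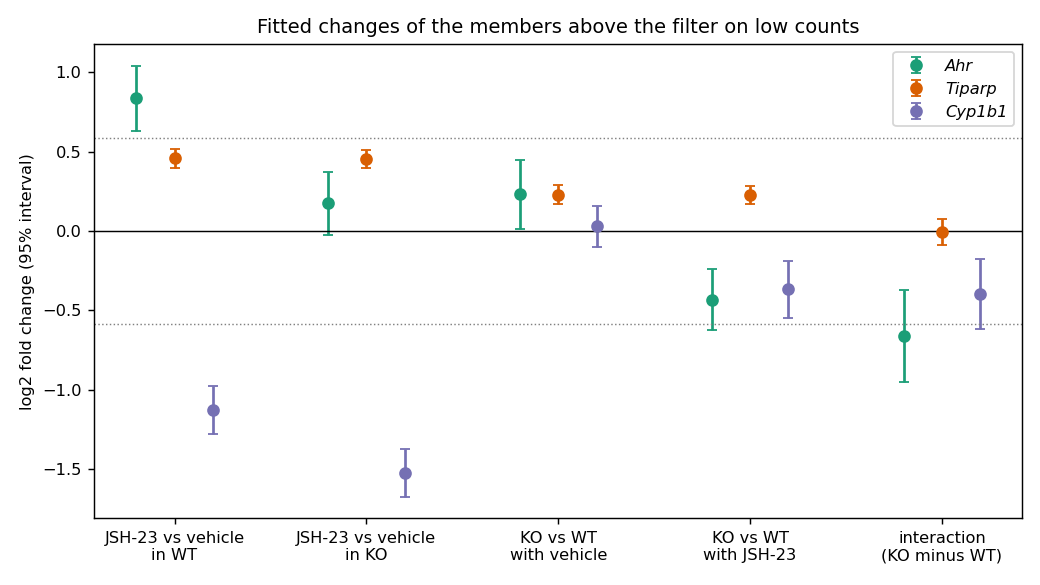
Fitted log2 fold changes (y axis) of *Ahr*, *Tiparp* and *Cyp1b1* in the 4 comparisons and the interaction (x axis), with 95% intervals as bars and dotted lines at 1.5-fold. *Cyp1b1* fell with JSH-23 by 1.13 and 1.52, *Tiparp* rose by 0.46 and 0.45, and *Ahr* rose by 0.84 in WT tumors.

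Read against all genes, passing was common in this data set. With JSH-23 in WT tumors, 3 of the 3 tested members passed, 2 higher and 1 lower, where 28.6% of all genes were higher and 27.2% lower, and 2 of them, *Ahr* and *Cyp1b1*, also reached 1.5-fold, where 15.8% of genes did. With JSH-23 in KO tumors, 1 of 3 was higher and 1 lower, against 33.4% and 34.4% of genes, and 1, *Cyp1b1*, reached 1.5-fold against 26% of genes. In KO against WT tumors with vehicle 1 of 3 was higher and 0 lower, against 25% and 25.5% of genes. With JSH-23, 1 was higher and 2 lower, against 23.2% and 23.8% of genes. None reached 1.5-fold in either, where 12.6% and 8.71% of all genes did. For the interaction 0 of 3 were higher and 2 lower in KO tumors, against 20.5% and 17.9% of genes. The comparisons of JSH-23 with vehicle share their samples with those between genotypes, and are not independent of them.

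The promoter windows are shown for the pair of targets that moved in opposite directions with JSH-23, *Tiparp* and *Cyp1b1*, and for *Ahrr*, which was barely detected. Each runs from 250 bases before to 50 bases after the start site in RefSeq (GRCm38.p6), 5′ to 3′ on the gene's strand, and capitals mark the core GCGTG, or CACGC where the core is on the other strand. They lie at chr3:65528197-65528496 (plus strand), chr17:79715012-79715311 (minus strand) and chr13:74292282-74292581 (minus strand).
Tiparp: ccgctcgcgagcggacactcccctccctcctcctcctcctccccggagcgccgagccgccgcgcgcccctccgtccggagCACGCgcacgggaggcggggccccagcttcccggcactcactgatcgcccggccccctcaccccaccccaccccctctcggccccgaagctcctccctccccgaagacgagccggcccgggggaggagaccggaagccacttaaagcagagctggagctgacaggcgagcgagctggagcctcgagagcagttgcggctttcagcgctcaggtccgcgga
Cyp1b1: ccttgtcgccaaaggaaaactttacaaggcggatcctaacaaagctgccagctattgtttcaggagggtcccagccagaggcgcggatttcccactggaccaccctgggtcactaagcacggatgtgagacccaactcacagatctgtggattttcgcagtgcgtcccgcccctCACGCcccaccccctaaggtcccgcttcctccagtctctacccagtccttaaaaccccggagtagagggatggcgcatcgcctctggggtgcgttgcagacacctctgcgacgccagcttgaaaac
Ahrr: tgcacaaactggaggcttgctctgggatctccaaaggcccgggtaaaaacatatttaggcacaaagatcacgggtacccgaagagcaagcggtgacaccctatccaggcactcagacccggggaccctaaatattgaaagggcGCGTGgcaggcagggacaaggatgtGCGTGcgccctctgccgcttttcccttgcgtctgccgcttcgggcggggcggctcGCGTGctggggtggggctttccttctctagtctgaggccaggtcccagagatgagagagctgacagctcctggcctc
The letters GCGTG, searched on both strands, occurred 1 time in each of the windows of *Tiparp* and *Cyp1b1*, on the other strand in both, and 3 times on the gene's strand in that of *Ahrr*. The window of *Cyp1a1* held 1 such core and that of *Cyp1a2* held 0. Among 32851 promoter windows of the same length, 32.4% held the letters at least 1 time and 3.91% at least 3 times, so a single core is common. Sequence outside these windows was not searched, and the part of the cores in the levels of these genes was not tested.

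Levels between genes were compared on the deposited TPM values, which divide by gene length. In vehicle samples the order was *Tiparp* (97.1 to 119 TPM), *Cyp1b1* (20.8 to 23.1 TPM) and *Ahr* (5.09 to 6.88 TPM), with no overlap between neighbours, and the other members were at most 0.111 TPM. With JSH-23, *Cyp1b1* came down to the level of *Ahr*. In WT tumors *Cyp1b1* had 9.41 and 10.2 TPM and *Ahr* 9.29 and 9.76 TPM, which overlapped. In KO tumors *Cyp1b1* had 6.87 and 6.44 TPM and *Ahr* 5.99 and 6.35 TPM, so *Cyp1b1* was just above.

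A ratio of 2 genes within a sample does not depend on how samples are scaled. *Tiparp* to *Cyp1b1* in TPM was 4.196 and 4.989 in WT and 5.43 and 5.10 in KO tumors with vehicle. With JSH-23 it was 14.4 and 13.0 in WT and 20.3 and 21.0 in KO tumors. The JSH-23 samples were all above the vehicle samples, with the KO samples highest, and their group means were 4.59, 5.27, 13.7 and 20.7. *Cyp1b1* to *Ahr* had group means of 4.04 in WT and 3.49 in KO tumors with vehicle and of 1.03 and 1.08 with JSH-23. *Tiparp* to *Ahr* was 18.4 and 18.3 with vehicle in WT and KO tumors, and 14.1 in WT and 22.3 in KO tumors with JSH-23.

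**Figure D3:**
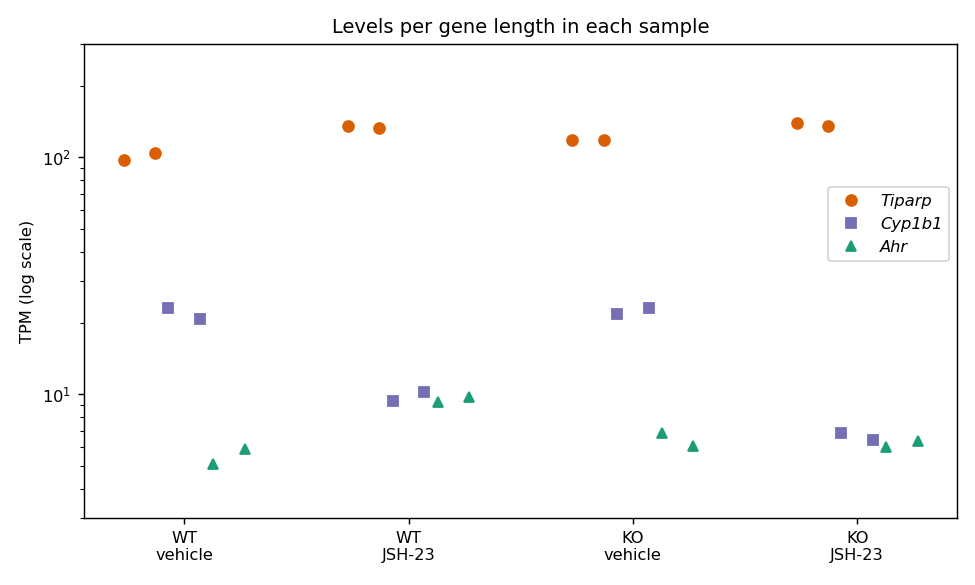
Deposited TPM of *Tiparp*, *Cyp1b1* and *Ahr* (y axis, log scale) in each sample of the 4 groups (x axis), with each sample as a symbol. *Cyp1b1* lies between the other members with vehicle, at 20.8 to 23.1 TPM, and meets *Ahr* with JSH-23.

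The partners, chaperones and coregulators of AhR were 10 genes, and all 10 passed the filter. With JSH-23 in WT tumors 6 were higher and 2 lower at an adjusted p under 0.05, and in KO tumors 4 were higher and 2 lower, with medians of 0.13 and -0.04 on the log2 scale against -0.01 and -0.02 over all genes. Over all genes 28.6% were higher and 27.2% lower in WT tumors, and 33.4% and 34.4% in KO tumors. *Arnt*, the obligate partner, was named after its values were seen. It had 85.0 and 86.8 CPM in WT and 86.7 and 86.9 CPM in KO tumors with vehicle, and 120 and 122 CPM in WT and 120 and 123 CPM in KO tumors with JSH-23. Its log2 change of 0.50 ± 0.040 in WT and 0.49 ± 0.038 in KO tumors fell short of 1.5-fold (edgeR adjusted p = 7.68e-18 and 8.36e-19), and the genotypes overlapped with JSH-23. On log2(TPM + 1) the change in KO tumors was 0.24. *Hsp90ab1*, an HSP90 chaperone that holds AhR in the cytoplasm, had 3097 and 3019 CPM in KO with vehicle and 4819 and 4880 CPM with JSH-23, a log2 change of 0.67 ± 0.011 (adjusted p = 5.85e-56), which was 0.43 on log2(TPM + 1). In WT tumors it rose by 0.27 ± 0.011 (adjusted p = 4.56e-32), from a mean of 3918 CPM, above that of KO with vehicle, to 4717 CPM. The other HSP90 gene, *Hsp90aa1*, named after its values were seen, fell with JSH-23 in both genotypes, from 844 ± 5.07 to 678 ± 5.18 CPM in WT and from 1000.3 ± 5.86 to 880.2 ± 10.5 CPM in KO tumors (log2 changes -0.32 and -0.18, adjusted p = 6.68e-26 and 3.28e-16). *Arnt2*, at 1.03 to 2.74 CPM, rose with JSH-23 in WT tumors by 0.96 ± 0.32 (adjusted p = 0.00976). That call did not hold with DESeq2 (adjusted p = 0.0617), without WT vehicle sample 2 (0.92, adjusted p = 0.0610) or without WT JSH-23 sample 1 (0.78, adjusted p = 0.108), and the change was 0.32 on log2(TPM + 1). Between genotypes, 3 of the 10 were higher and 2 lower with vehicle, against 25% and 25.5% of all genes, and 4 higher and 4 lower with JSH-23, against 23.2% and 23.8%. *Arnt2* was lower in KO tumors with JSH-23 by -0.85 ± 0.31 (adjusted p = 0.0194), a call that was lost with DESeq2 (adjusted p = 0.102), without WT JSH-23 sample 1 (-0.68, adjusted p = 0.181) and without KO JSH-23 sample 1 (-0.55, adjusted p = 0.234). On log2(TPM + 1) that change was -0.36.

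Other genes known to respond to AhR were 17, of which 9 passed the filter. *Nqo1*, a quinone reductase that often accompanies *Cyp1a1* in this response, had at most 8 counts in a sample, and *Areg*, *Ereg*, *Serpinb2* and *Scin* had at most 5. With JSH-23, 4 of the 9 were higher and 2 lower in WT tumors, and 1 was higher and 4 lower in KO tumors, with medians of 0.26 and -0.28 on the log2 scale. The shares over all genes were 28.6% higher and 27.2% lower in WT and 33.4% and 34.4% in KO tumors. *Cyp2s1*, a P450 that AhR ligands induce, fell with JSH-23 in both genotypes, as *Cyp1b1* did. It had 38.3 and 36.5 CPM in WT and 52.3 and 52.7 CPM in KO tumors with vehicle, and 20.8 and 22.3 CPM in WT and 29.1 and 29.9 CPM in KO tumors with JSH-23. Every JSH-23 sample lay below every vehicle sample, and the log2 changes were -0.80 ± 0.075 in WT and -0.83 ± 0.064 in KO tumors (edgeR adjusted p = 8.69e-15 and 5.96e-19).

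*Ptgs2*, which encodes cyclooxygenase-2 and is also a target of NF-κB, had 820 and 850 counts in WT and 2221 and 2515 counts in KO tumors with vehicle. With JSH-23 it had 949 and 864 counts in WT and 1323 and 1489 counts in KO tumors, so that the KO vehicle samples were the highest. It was higher in KO than in WT tumors with vehicle by 1.31 ± 0.045 on the log2 scale and lower with JSH-23 in KO tumors by -0.77 ± 0.041 (edgeR adjusted p = 6.67e-37 and 5.54e-27). *Ugt1a6a* and *Ugt1a6b* encode glucuronosyltransferases of phenols and share most of their exons, so their reads may be split between them. Both were lower in KO than in WT tumors with JSH-23, by -0.88 ± 0.071 and -0.87 ± 0.071 (adjusted p = 1.20e-17 and 2.90e-17). With vehicle their KO means were also lower, at 22.8 against 33.2 CPM for *Ugt1a6a* and 21.2 against 31.4 CPM for *Ugt1a6b*, short of 1.5-fold. Unlike *Cyp2s1*, both had higher means with JSH-23 than with vehicle in WT tumors, at 45.8 and 43.2 CPM. In KO tumors with JSH-23 their means were 24.8 and 23.6 CPM. *Aldh3a1*, an aldehyde dehydrogenase of the classical AhR battery, was at 0.713 to 2.37 CPM and rose with JSH-23 in WT tumors by 1.35 ± 0.39 (adjusted p = 0.00233). It was also higher in KO than in WT tumors with vehicle by 0.99 ± 0.40 (adjusted p = 0.0326), which DESeq2 did not call (adjusted p = 0.115). The rise in WT tumors missed the threshold without WT JSH-23 sample 2 (0.98, adjusted p = 0.0918). The difference between genotypes missed it without WT vehicle sample 1 (0.94, adjusted p = 0.135), WT vehicle sample 2 (1.04, 0.101) or KO vehicle sample 1 (0.71, 0.270). Across the 9 tested, 4 were higher and 3 lower in KO tumors with vehicle, against 25% and 25.5% of all genes, and 3 higher and 4 lower with JSH-23, against 23.2% and 23.8%.

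**Figure D4:**
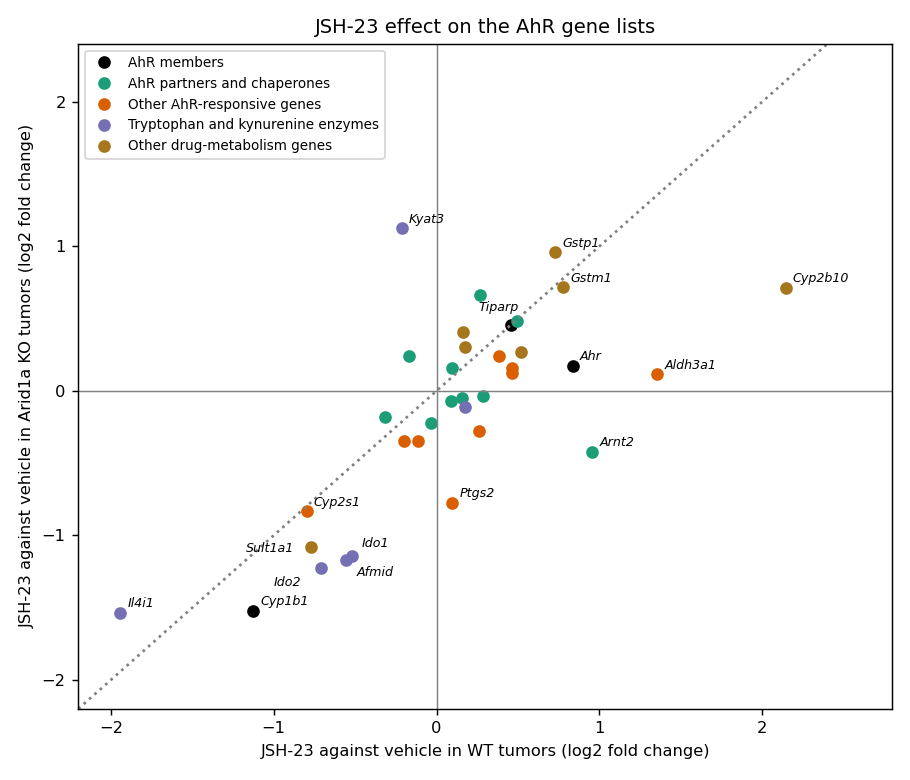
Log2 change with JSH-23 in WT tumors (x axis) against that in KO tumors (y axis), with a dotted line where both are equal. Points are the tested members, AhR partners and chaperones, other AhR-responsive genes, tryptophan and kynurenine enzymes and other drug-metabolism genes. *Cyp1b1* and *Cyp2s1* lie low on both axes, and *Ahr* and *Cyp2b10* lie to the right of the line.

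Enzymes of tryptophan and kynurenine metabolism, some of whose products are AhR ligands, were 12 genes, of which 6 passed the filter. *Tdo2* and *Kmo* had 0 counts in all 8 samples. With JSH-23, 1 was higher and 4 lower in WT tumors and 1 higher and 4 lower in KO tumors, with medians of -0.54 and -1.16 on the log2 scale. Over all genes the shares were 28.6% higher and 27.2% lower in WT and 33.4% and 34.4% in KO tumors. *Ido1*, which opens the tryptophan ring, had 7.42 and 9.23 CPM in WT and 14.1 and 14.0 CPM in KO tumors with vehicle, and 6.20 and 5.41 CPM in WT and 6.27 and 6.43 CPM in KO tumors with JSH-23. The KO vehicle samples stood above the other 6. Its log2 change was 0.76 ± 0.12 for KO against WT with vehicle and -1.15 ± 0.13 for JSH-23 in KO tumors (edgeR adjusted p = 3.05e-07 and 1.35e-12). *Afmid*, the formamidase of the next step, had a like pattern, at 30.1 and 27.1 CPM in KO with vehicle and 12.0 to 19.2 CPM in the other 6 samples. Its changes were 0.66 ± 0.089 and -1.17 ± 0.092 (adjusted p = 2.10e-09 and 1.81e-18). The means in WT tumors were lower with JSH-23 as well, from 8.33 to 5.80 CPM for *Ido1* and from 18.0 to 12.3 CPM for *Afmid*.

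*Ido2*, a paralog of *Ido1*, was at 1.90 to 7.94 CPM and was likewise higher in KO tumors with vehicle (0.75 ± 0.18, edgeR adjusted p = 4.37e-04) and lower with JSH-23 in KO tumors (-1.23 ± 0.19, adjusted p = 5.26e-08). The former was lost on log2(TPM + 0.1) (0.70, limma adjusted p = 0.0689) and was 0.47 on log2(TPM + 1). *Ido2* was also lower with JSH-23 in WT tumors (-0.71 ± 0.23, edgeR adjusted p = 0.00581). That call held in 6 of 9 alternatives that kept all samples of the groups compared, and the change was -0.34 without WT JSH-23 sample 1. *Il4i1*, an amino acid oxidase whose products can activate AhR, had 4.57 and 4.65 CPM in WT and 4.42 and 5.72 CPM in KO tumors with vehicle. With JSH-23 it had 1.01 and 1.40 CPM in WT and 1.84 and 1.68 CPM in KO tumors, below every vehicle sample. Its log2 changes were -1.94 ± 0.26 in WT and -1.53 ± 0.23 in KO tumors (adjusted p = 1.92e-09 and 1.34e-08). *Kyat3*, a kynurenine aminotransferase, went the other way, lower in KO tumors with vehicle (-1.25 ± 0.26, adjusted p = 4.45e-05), at 1.77 and 1.21 CPM against 2.90 to 3.98 CPM in the other samples. Between genotypes 4 of the 6 were higher and 1 lower with vehicle, against 25% and 25.5% of all genes, and 1 was higher and 0 lower with JSH-23, against 23.2% and 23.8%. The interaction passed for *Ido1* (-0.63, adjusted p = 0.00757), *Afmid* (-0.61, adjusted p = 2.88e-04) and *Kyat3* (1.34, adjusted p = 0.00141) among the genes named. That of *Ido1* was not called by DESeq2 (adjusted p = 0.0794), without WT vehicle sample 1 (-0.48, adjusted p = 0.0731) or without WT JSH-23 sample 1 (-0.52, adjusted p = 0.0764), and with the coefficient of variation at 0.1 neither *Ido1* (0.158) nor *Afmid* (0.110) passed.

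**Figure D5:**
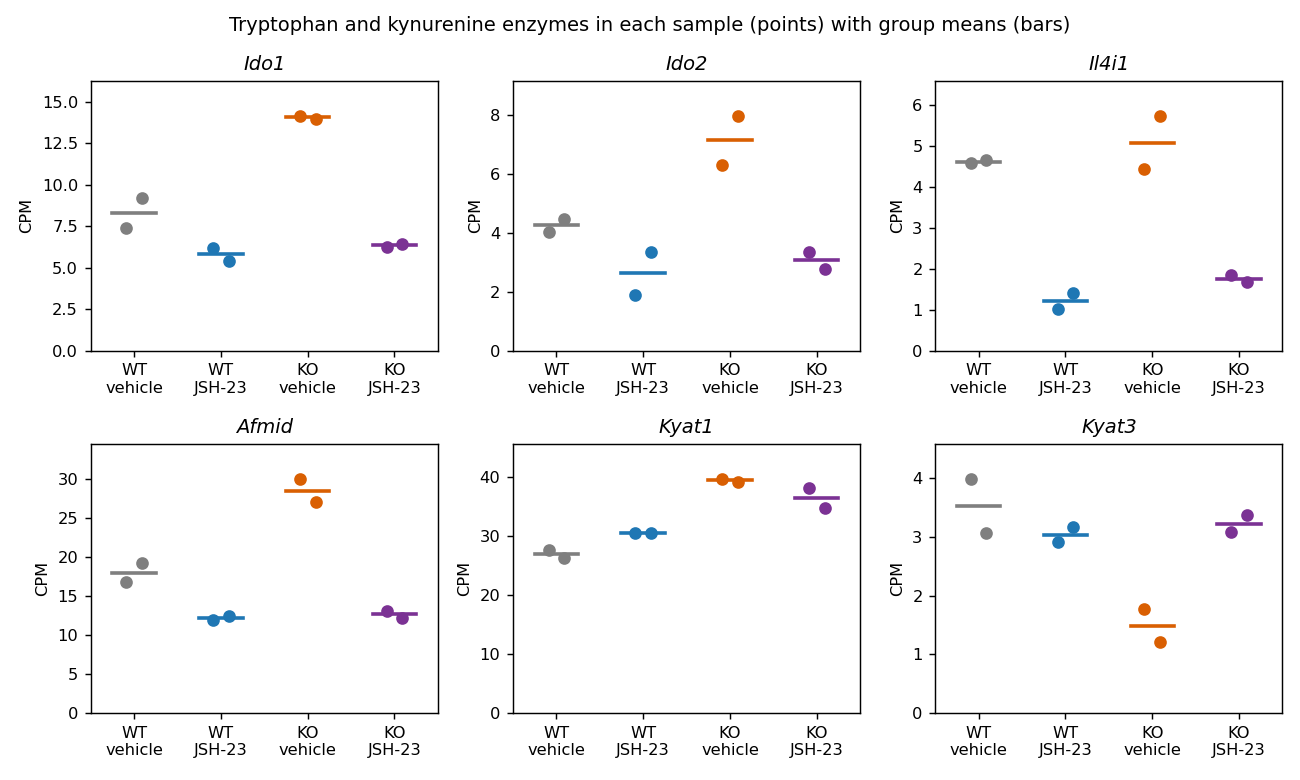
CPM after TMM scaling (y axis, starting at 0) of the 6 tested tryptophan and kynurenine enzymes in the 4 groups (x axis), with samples as points and means of 2 samples as bars. The KO vehicle samples are highest for *Ido1*, *Ido2* and *Afmid*, and the JSH-23 samples are lowest for *Il4i1*.

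Over the 8 samples, the genes whose log2 CPM followed each member most closely were sought among the 9193 genes that averaged 10 CPM or more. For *Ahr* they were *Pikfyve* (Pearson r = 0.986), *Ppp1r13b* (0.980) and *Sort1* (0.977). For *Tiparp* they were *Nr1d1* (0.993), which encodes a nuclear receptor of the circadian clock, *Clptm1* (0.992) and *Syngr2* (0.991). For *Cyp1b1* they were *Shprh* (0.998), *Ddx3x* (0.998) and *Sec16a* (0.996). These values describe 8 points that come from the same 4 groups and libraries. *Nr1d1* rose in the same order of groups as *Tiparp*, with means of 78.1, 109, 152 and 227 CPM from WT with vehicle through KO with vehicle and WT with JSH-23 to KO with JSH-23.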

How the data were processed

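Total RNA of sorted cells was sequenced in 8 samples. The authors aligned paired-end reads to GRCm38/mm10 (TopHat2 in the methods, while the submitters' processing notes name HISAT2) and used HTSeq for strand-specific read counting per gene; the deposited counts are not normalized. The deposited TPM values divide a count by gene length and were scaled by the authors to a fixed sum per sample. A second TPM table repeats these values and was not used.

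From the counts, edgeR 4.0.16 (R 4.3.3) filterByExpr kept 13921 of 39089 genes, TMM factors were 0.949 to 1.03, and 1 quasi-likelihood fit of all 8 samples, with the 4 group means as its terms, gave 5 comparisons: KO against WT under each treatment, the JSH-23 effect within each genotype, and the interaction. P-values were adjusted by Benjamini-Hochberg over all genes. CPM are counts scaled to library size after TMM, and 95% intervals use the model's degrees of freedom. The test was tested on simulated data. Alternatives were DESeq2 1.42.0, limma 3.58.1 on log2(TPM + 1) and log2(TPM + 0.1), no scaling, other filters, a replicate block, a coefficient of variation of 0.1, the compared groups alone, and each sample left out. The chi-square per degree of freedom between the samples of a group was 1.46 to 1.57, so they differed beyond counting noise.

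The genes and lists were chosen with earlier results of these data known. From each list, the text names at most 4 genes per comparison, those called at 1.5-fold with the highest mean CPM, and the 3 genes most like each member. *Arnt*, *Hsp90aa1* and genes named for low counts were added after their values were seen. The promoter windows to print were also picked after the values of their genes were seen. Promoters are from RefSeq (GRCm38.p6), which held windows for *Ahrr*, *Tiparp*, *Cyp1a1*, *Cyp1a2* and *Cyp1b1* but not for *Ahr*.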

Additional observations from a re-analysis of the deposited data

Results flagged for a closer look

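The JSH-23 effect on *Ahr* differed between the genotypes, by -0.66 on the log2 scale (KO minus WT, SE 0.14), in the interaction test of edgeR's quasi-likelihood model with Benjamini-Hochberg adjustment (adjusted p = 1.19e-04). *Ahr* was higher with JSH-23 in 2 of 2 WT samples than in either WT vehicle sample. The KO JSH-23 samples were above the KO vehicle samples in CPM, by less, and overlapped them in TPM. On log2(TPM + 1) the change in KO tumors was -0.06, where the median of all genes was -0.20. The JSH-23 effect on *Cyp1b1* differed by -0.40 (SE 0.11, adjusted p = 0.00280), with a fall in both genotypes that was larger in KO tumors. Both differences missed the threshold when the biological coefficient of variation was set to 0.1, and their cause was not tested.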

How the results depend on the processing

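The JSH-23 effects on *Cyp1b1* and *Tiparp* in both genotypes and on *Ahr* in WT tumors kept their direction and passed under each of the 17 alternatives tried for them. With a biological coefficient of variation of 0.1, the KO difference was 0.23 for *Tiparp* with vehicle (adjusted p = 0.284), and -0.43 for *Ahr* (0.0567), 0.23 for *Tiparp* (0.320) and -0.37 for *Cyp1b1* (0.120) with JSH-23, while the interaction was -0.67 for *Ahr* (0.0744) and -0.39 for *Cyp1b1* (0.343), and 252 genes were higher and 495 lower in the interaction; none of these members passed. Without scaling beyond library size, the KO difference of *Ahr* with vehicle was 0.26 and passed (0.0427), the *Tiparp* interaction was -0.11 and passed (0.0286), JSH-23 in KO tumors had 843 genes higher, and the interaction had 1854 higher and 3750 lower. On log2(TPM + 1) and log2(TPM + 0.1), the KO difference of *Tiparp* with JSH-23 was 0.0353 and 0.0356 (adjusted p = 0.439 and 0.435), the *Ahr* change with JSH-23 in KO tumors reversed to -0.0591 and -0.0672, and the *Tiparp* interaction was -0.20 and -0.20 (0.0162 and 0.0160). With these values 168 and 266 genes were higher in KO tumors with JSH-23, and 1400 lower at the smaller pseudocount, 448 were higher with JSH-23 in WT tumors at the larger one, 407 and 553 were higher with JSH-23 in KO tumors, and the interaction had 1040 and 1034 higher and 4536 and 4424 lower. The main counts were 520 higher and 692 lower (KO with JSH-23), 773 higher (JSH-23 in WT), 1267 higher (JSH-23 in KO), and 2851 higher and 2495 lower (interaction). The share of higher calls moved with scaling: 42.9% against 29.6% without scaling and 15.9% in TPM for KO with JSH-23, 35.0% against 22.5% and 12.8% for JSH-23 in KO tumors, and 53.3% against 33.1% and 18.7% for the interaction. The median of all genes was -0.13 without scaling and -0.20 and -0.25 in TPM for JSH-23 in KO tumors, against -0.02 in the main fit. For KO with JSH-23 it was -0.16 and -0.19 in TPM, against -0.01. For the interaction it was -0.11, -0.17 and -0.20, against -0.004. Relative to the median, *Tiparp* rose with JSH-23 in KO tumors by 0.42 to 0.52 over the alternatives. The *Ahr* change in KO tumors was 0.15 to 0.25 above the median over the alternatives that kept all samples of the groups compared. DESeq2 gave 0.00095 for the *Tiparp* interaction, a sign change about 0, and 1517 genes lower in the interaction.

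With 1 sample left out in turn, the KO difference with vehicle ranged from 0.13 to 0.33 for *Ahr*, which passed without WT vehicle sample 2 (0.33, adjusted p = 0.0436) and without KO vehicle sample 2 (0.32, 0.0417), and from -0.0514 to 0.11 for *Cyp1b1*, which was -0.0514 without WT vehicle sample 2 and -0.0154 without KO vehicle sample 2. The *Tiparp* interaction ranged from -0.0458 to 0.0451, with 0.0451, 0.0148, 0.00535 and 0.0313 without WT vehicle sample 1, WT JSH-23 sample 1, KO vehicle sample 1 and KO JSH-23 sample 2. Of the genes of the other lists, no direction changed under the other alternatives; a call was lost in 11 fits and kept in 361. Leaving out a sample lost calls for *Aldh3a1*, *Arnt2*, *Ido1*, *Ido2* and *Cyp2b10*. The replicate numbers of the labels do not pair the samples: deviations of same-numbered samples correlated at -0.007 to 0.026 over 9194 genes. With the replicate number as a block, 1034 genes were higher and 716 lower in KO tumors with vehicle, against 1041 and 719 without it, and no member's call changed. The depth limits *Ahrr*, *Cyp1a1* and *Cyp1a2*, which had at most 5 counts in a sample.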

Other observations

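Other bHLH-PAS factors, relatives of AhR that also use ARNT or its paralogs, were 12 genes, of which 6 passed the filter on low counts. *Sim2*, which encodes a factor that can compete for ARNT, had 15.2 and 18.5 CPM in WT and 15.5 and 16.7 CPM in KO tumors with vehicle, and 9.33 and 11.0 CPM in WT and 8.05 and 8.30 CPM in KO tumors with JSH-23. All JSH-23 samples were below all vehicle samples, with log2 changes of -0.73 ± 0.11 and -0.98 ± 0.11 (quasi-likelihood test of edgeR, Benjamini-Hochberg adjusted p = 1.05e-07 and 1.27e-11). With JSH-23, 2 of the 6 were higher and 2 lower in WT tumors, where 28.6% and 27.2% of all genes were, and 1 higher and 4 lower in KO tumors, against 33.4% and 34.4%. Between genotypes 2 were higher and 2 lower with vehicle, against 25% and 25.5% of all genes, and 0 higher and 3 lower with JSH-23, against 23.2% and 23.8%.

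Other drug-metabolism genes were 11, of which 7 passed the filter, and with JSH-23 5 were higher and 1 lower in each genotype, where 28.6% of all genes were higher and 27.2% lower in WT and 33.4% and 34.4% in KO tumors. *Gstm1*, a glutathione transferase, had 95.5 and 92.1 CPM in WT and 101 and 101 CPM in KO tumors with vehicle, and 165 and 156 CPM in WT and 163 and 169 CPM in KO tumors with JSH-23. Its log2 change was 0.78 ± 0.037 in WT and 0.72 ± 0.035 in KO tumors (adjusted p = 6.04e-29 and 4.41e-29), the latter 0.48 on log2(TPM + 1). *Gstp1*, another glutathione transferase, rose by 0.73 ± 0.037 in WT and 0.96 ± 0.037 in KO tumors (edgeR adjusted p = 1.13e-27 and 1.73e-34), and both genes have near-identical paralogs that could share reads. *Cyp2b10*, a P450 target of the receptor CAR, had 26 and 26 counts in WT with vehicle and 118 and 116 with JSH-23, and 53 and 65 in KO with vehicle and 110 and 86 with JSH-23. Its log2 change was 2.14 ± 0.23 in WT and 0.71 ± 0.20 in KO tumors (adjusted p = 6.78e-13 and 0.00114), and the difference of -1.43 passed (adjusted p = 1.20e-04). Without KO JSH-23 sample 1 the change in KO tumors was 0.46 and missed the threshold (adjusted p = 0.0894). *Sult1a1*, a phenol sulfotransferase, fell by -0.77 ± 0.10 in WT and by -1.08 ± 0.11 in KO tumors (adjusted p = 5.80e-10 and 3.84e-14). *Ephx1*, microsomal epoxide hydrolase, was lower in KO than in WT tumors with vehicle by -0.78 ± 0.048 (adjusted p = 2.12e-23). With JSH-23 its mean was also lower in KO tumors, at 70.1 against 102 CPM. Between genotypes 3 of the 7 were higher and 3 lower with vehicle, against 25% and 25.5% of all genes, and 1 higher and 4 lower with JSH-23, against 23.2% and 23.8%.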
